A study of Rattus norvegicus with 26 samples.

Results

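The circadian clock genes Per1, Per2, Per3, Cry1, Cry2, Nr1d1, Nr1d2, Dbp, Tef and Clock were followed in the hippocampus of aging rats. The members were the probe sets whose annotation names one of these symbols and no other, with the probe set of highest mean kept where a gene has several. All 10 were found, each with 1 probe set, among 14506 genes with a probe set of their own, and all 10 passed the filter on low values that left 8485 genes for testing. Because each member has a single probe set, no other probe set could serve as a check on any of them. The study asked whether dietary vitamin D3 alters hippocampal gene expression in older animals. Rats of the 3 groups were male, of the Fisher 344 strain and 18 months old, and they ate a purified AIN-93G diet for 5-6 months. The low diet held 100 IU of vitamin D3 per kg (8 rats), the control diet 1000 IU (9 rats) and the high diet 10000 IU (9 rats). The rats were housed in pairs, with a tail mark to tell cage mates apart, and the 26 rats came from 14 cages, of which 12 had an array for both rats. The hour at which each rat was killed was not given in the sources used here. Total RNA of each hippocampal tissue block went onto 1 Affymetrix Rat Gene 1.0 ST array, which reports a log2 hybridisation value per probe set.

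In mammals the clock is a feedback loop of transcription. CLOCK, or its relative NPAS2, pairs with BMAL1 and switches on the Per and Cry genes at E-box elements, and the PER and CRY proteins then repress that activity. NR1D1 and NR1D2 (REV-ERB alpha and beta) form a side loop that represses Bmal1. DBP and TEF are PAR bZIP activators that bind D-box elements, among them those of Per genes. The loop runs in nearly every tissue, the hippocampus included, so the RNA of most of these genes depends on the hour at which the tissue is taken. Per1 is in addition induced by glucocorticoids.

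The E-box and D-box elements named here can be looked for in promoter sequence, so the windows of genes on which the results turn are shown first. RefSeq windows on assembly GRCr8, reaching from 250 bases before to 50 bases after an annotated start, were available for 9 of the 10 members, with 11 windows in all, and Cry1 had none in the table used. Both strands were searched for the E-box CACGTG, the E-box variant CACGTT, the D-box forms TTATGTAA and TTACGTAA, and AGGTCA, the core letters bound by REV-ERB and ROR proteins. Capitals mark a match, and AACGTG is CACGTT read on the other strand. No matches overlap. Per2 lies at chr9:99496944-99497243 (minus strand) and holds a D-box form and an E-box variant. Nr1d1 has windows at chr10:84231763-84232062 and chr10:84229405-84229704 (minus strand), one with the variant and one with CACGTG. Tef lies at chr7:115206577-115206876 (plus strand), and Bhlhe41, another clock repressor, at chr4:180569306-180569605 (minus strand), each with CACGTG. Dbp lies at chr1:105312006-105312305 (plus strand) and is shown without capitals, since none of these letters occur in it.
Per2: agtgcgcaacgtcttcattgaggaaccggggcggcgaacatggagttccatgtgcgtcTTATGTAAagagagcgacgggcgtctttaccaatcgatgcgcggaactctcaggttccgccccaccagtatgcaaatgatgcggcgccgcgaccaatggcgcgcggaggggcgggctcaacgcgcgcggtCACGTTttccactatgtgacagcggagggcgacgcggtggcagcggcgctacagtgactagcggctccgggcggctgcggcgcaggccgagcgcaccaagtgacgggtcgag
Nr1d1, first window: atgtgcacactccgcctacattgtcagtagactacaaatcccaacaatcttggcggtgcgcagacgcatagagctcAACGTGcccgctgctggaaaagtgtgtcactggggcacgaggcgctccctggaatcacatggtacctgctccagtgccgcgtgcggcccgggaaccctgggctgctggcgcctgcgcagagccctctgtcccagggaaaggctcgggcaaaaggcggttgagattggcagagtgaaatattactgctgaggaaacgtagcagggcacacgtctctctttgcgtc
Nr1d1, second window: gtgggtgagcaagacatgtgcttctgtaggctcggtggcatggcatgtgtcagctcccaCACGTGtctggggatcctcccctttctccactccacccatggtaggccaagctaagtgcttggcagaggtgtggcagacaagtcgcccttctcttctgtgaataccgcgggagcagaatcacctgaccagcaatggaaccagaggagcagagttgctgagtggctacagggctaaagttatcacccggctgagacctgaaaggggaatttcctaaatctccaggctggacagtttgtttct
Tef: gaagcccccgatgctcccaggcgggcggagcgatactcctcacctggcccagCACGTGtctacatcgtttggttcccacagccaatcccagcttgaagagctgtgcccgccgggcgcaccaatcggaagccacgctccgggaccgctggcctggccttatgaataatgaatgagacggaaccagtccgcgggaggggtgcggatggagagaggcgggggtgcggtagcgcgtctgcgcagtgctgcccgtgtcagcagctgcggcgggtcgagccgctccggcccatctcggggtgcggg
Bhlhe41: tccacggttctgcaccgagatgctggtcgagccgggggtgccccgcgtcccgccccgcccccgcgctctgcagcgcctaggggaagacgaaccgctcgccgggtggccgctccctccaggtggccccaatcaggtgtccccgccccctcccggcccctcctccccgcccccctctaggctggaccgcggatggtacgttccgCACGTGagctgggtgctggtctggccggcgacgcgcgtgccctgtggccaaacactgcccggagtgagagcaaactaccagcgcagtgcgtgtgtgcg
Dbp: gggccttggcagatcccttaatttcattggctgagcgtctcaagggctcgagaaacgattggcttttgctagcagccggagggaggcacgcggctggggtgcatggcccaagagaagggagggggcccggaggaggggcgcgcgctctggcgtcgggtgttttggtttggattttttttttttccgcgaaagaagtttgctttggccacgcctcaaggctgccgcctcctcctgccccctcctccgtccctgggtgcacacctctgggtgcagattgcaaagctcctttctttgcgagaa
Among 33469 windows of the same length in the table, 6.42% held CACGTG, 4.83% held CACGTT, 0.893% held TTATGTAA, 0.12% held TTACGTAA and 16.2% held AGGTCA. Cry2 also held CACGTT, Bhlhe40, a relative of Bhlhe41, held CACGTG, Nr1d2 and Bmal1 held AGGTCA, and the windows of Per1, Per3 and Clock held none of the letters searched. A match is a description of letters, not a site, and the absence of one covers this window only. The Per1 window starts at chr10:54304126 and the Tef window at chr7:115206577, inside genes that start at 54299002 and 115197180. Both windows are on the plus strand. The Per3 window, on the minus strand, ends at chr5:166778050, inside a gene whose start on that strand is at 166778243. The bases before the gene starts of Per1, Tef and Per3 were therefore not searched.

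The tissue and arrays were checked in brief. Of 10 markers of hippocampal neurons, 8 passed the filter on low values, among them Prox1 and Zbtb20, while 7 of 9 choroid plexus markers did not, or had no probe set of their own. The 2 that passed, Ttr and Enpp2, had a mean log2 value per rat of 9.53 to 10.90 on low, 9.04 to 12.44 on control and 9.13 to 11.40 on high. The filter therefore does not show that choroid plexus was absent or alike between rats. Array medians lay between 6.92 and 6.96, and each array correlated on average at 0.997 to 0.998 with the rest. The number of arrays limits the precision. In whole tissue, fewer cells of a type and less RNA per cell cannot be told apart.

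No clock gene differed by diet past the threshold, an adjusted p under 0.17, the tighter error rate of the study's design. The count was 0 of 10 members in the F-test across the 3 diets and in each pairwise contrast, against a background of 0% of 8485 tested genes in every one of them (limma, Benjamini-Hochberg over all tested genes). At an unadjusted p under 0.05, Dbp alone passed in the F-test and in high minus low (1 of 10 in each), where 4.62% and 7.22% of all genes did. None passed in high minus control or low minus control, where the shares over all genes were 4.63% and 2.27%.

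Dbp (probe set 10706953, chr1:105312256-105317205 on GRCr8), the PAR bZIP output gene, had a lowest, median and highest rat of 11.10, 11.38 and 11.62 on the low diet, 11.33, 11.40 and 11.64 on the control diet and 11.39, 11.45 and 11.75 on the high diet. The diets overlapped over most of their range: 3 of 9 rats on the high diet exceeded the whole low group, and 4 of 8 rats on the low diet were under the whole control group. All 9 rats on the high diet exceeded the mean of the low group. The low group averaged 11.36 ± 0.17, the control group 11.43 ± 0.09 and the high group 11.52 ± 0.13 (SD, 8, 9 and 9 rats). High minus low was 0.16 (SE 0.062, 95% interval 0.033 to 0.29, limma adjusted p = 0.674). High minus control was 0.093 (interval -0.029 to 0.22) and low minus control -0.066 (interval -0.19 to 0.060). Low minus control moved with single rats, to -0.10 without low-diet rat 4 and to -0.028 without low-diet rat 2. These differences did not pass the adjusted threshold. The intervals take cage mates as independent, although cage mates resembled each other in Dbp, with values given further below.

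The nuclear receptors of the side loop had their highest means on the high diet too. Nr1d1 (REV-ERB alpha, probe set 10746955) ranged from 10.76 through a median of 10.94 to 11.03 on low, from 10.83 through 10.93 to 11.05 on control and from 10.84 through 10.99 to 11.23 on high. The diets overlapped, and 4 of 9 rats on the high diet exceeded the whole low group. High minus low was 0.086 (interval -0.013 to 0.19, limma adjusted p = 0.737), and 0.046 with array quality weights. Nr1d2 (REV-ERB beta, probe set 10940575) ranged from 10.41 through 10.51 to 10.59 on low, from 10.41 through 10.54 to 10.71 on control and from 10.40 through 10.57 to 10.75 on high. Here 3 of 9 rats on the high diet exceeded the whole low group and 1 was under it. High minus low was 0.079 (interval -0.0066 to 0.16, limma adjusted p = 0.702). In GRCr8 the end of Nr1d1 overlaps that of Thra, the thyroid hormone receptor gene on the other strand of chromosome 10, by 1061 bases, and where the probes lie relative to that stretch was not analysed here.

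The Per genes, repressors of the core loop, had no common order over the diets. Per3 (probe set 10881861) ranged from 9.09 through a median of 9.25 to 9.50 on low, from 9.30 through 9.36 to 9.47 on control and from 9.17 through 9.31 to 9.53 on high. Of the 8 rats on the low diet, 5 were under the whole control group and 1 exceeded it, so the low group was the wider one and spanned the control group. Low minus control was -0.094 (interval -0.20 to 0.0076, limma adjusted p = 1.00). High minus low was 0.057, but 0.025 with array quality weights and 0.088 without low-diet rat 4. Per1 (probe set 10734882) had medians of 9.53, 9.56 and 9.55 on low, control and high, within ranges of 9.40 to 9.74, 9.47 to 9.65 and 9.45 to 9.77. Per2 (probe set 10929842) had medians of 8.90, 8.94 and 8.94, within ranges of 8.76 to 9.17, 8.89 to 9.10 and 8.77 to 9.10. For both genes the control range lay inside those of the other diets. Their largest difference between diets was that of Per2 for low minus control, -0.033 (interval -0.14 to 0.069), which ran from -0.068 without low-diet rat 4 to -0.0095 without low-diet rat 8.

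Among the remaining members the largest mean difference was that of Cry1 for high minus control, -0.054 (interval -0.18 to 0.069, limma adjusted p = 1.00), which ran from -0.090 without control rat 11 to -0.030 without control rat 9. Cry1 and Cry2 encode the cryptochrome repressors. Cry1 (probe set 10894525) had medians of 7.37, 7.43 and 7.39 in the low, control and high groups, with ranges of 7.03 to 7.61, 7.13 to 7.61 and 7.26 to 7.41. Its high-diet rats all lay within the range of the low and of the control rats. Cry2 (probe set 10847525) had medians of 10.86, 10.79 and 10.83, with ranges of 10.77 to 10.90, 10.76 to 10.86 and 10.77 to 10.95, and 4 of 8 rats on the low diet exceeded the whole control group. Low minus control for Cry2 was 0.048 (interval -0.0032 to 0.0996, limma adjusted p = 1.00). Tef (probe set 10897997), the PAR bZIP relative of Dbp, had medians of 10.19, 10.21 and 10.21, and Clock (probe set 10772249), the activator, medians of 10.73, 10.72 and 10.72 in the same order. On the high diet 1 of 9 rats exceeded the whole low group in Tef, and 1 of 9 did in Clock.

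Over the members, 8 of 10 had a higher mean on the high than on the low diet, against 55.2% of all tested genes, and the median size of the difference was 0.029 log2, against 0.028 over all tested genes. For low minus control, 1 of 10 was positive, against 44.1% of all tested genes, and for high minus control 6 of 10, against 50.6%. These contrasts share rats, so their signs are not independent.

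**Figure D1:**
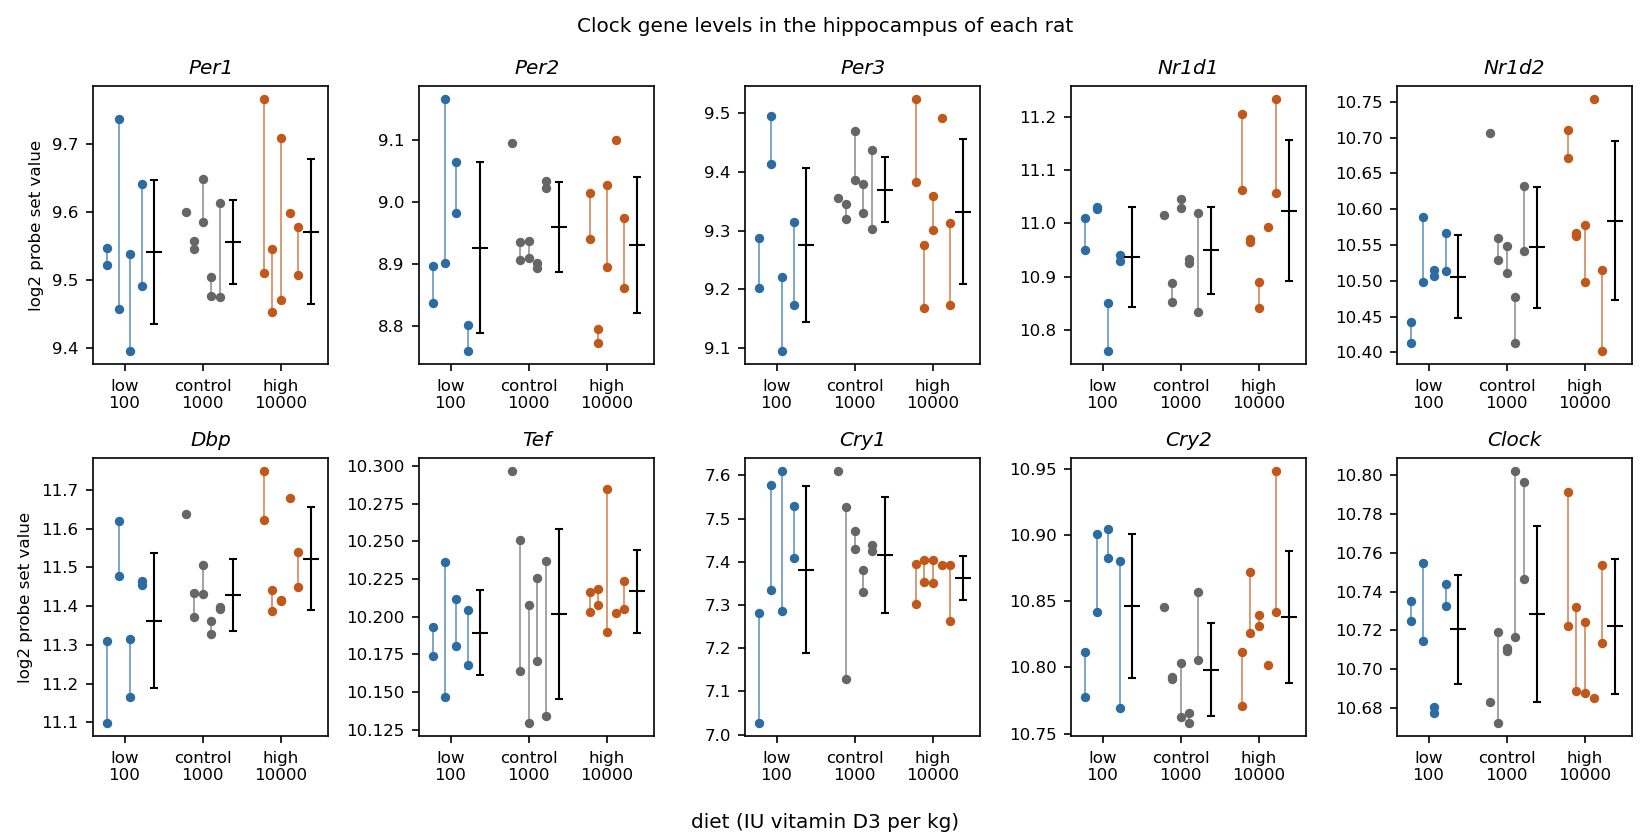
Log2 probe set value (y axis) of each clock gene in each rat by diet (x axis, IU of vitamin D3 per kg), with lines joining cage mates and black bars giving mean ± SD (n = 8 low, 9 control, 9 high). The diets overlap in every panel, and the Dbp rats run from 11.10 to 11.75; the y axis differs between panels.

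**Figure D2:**
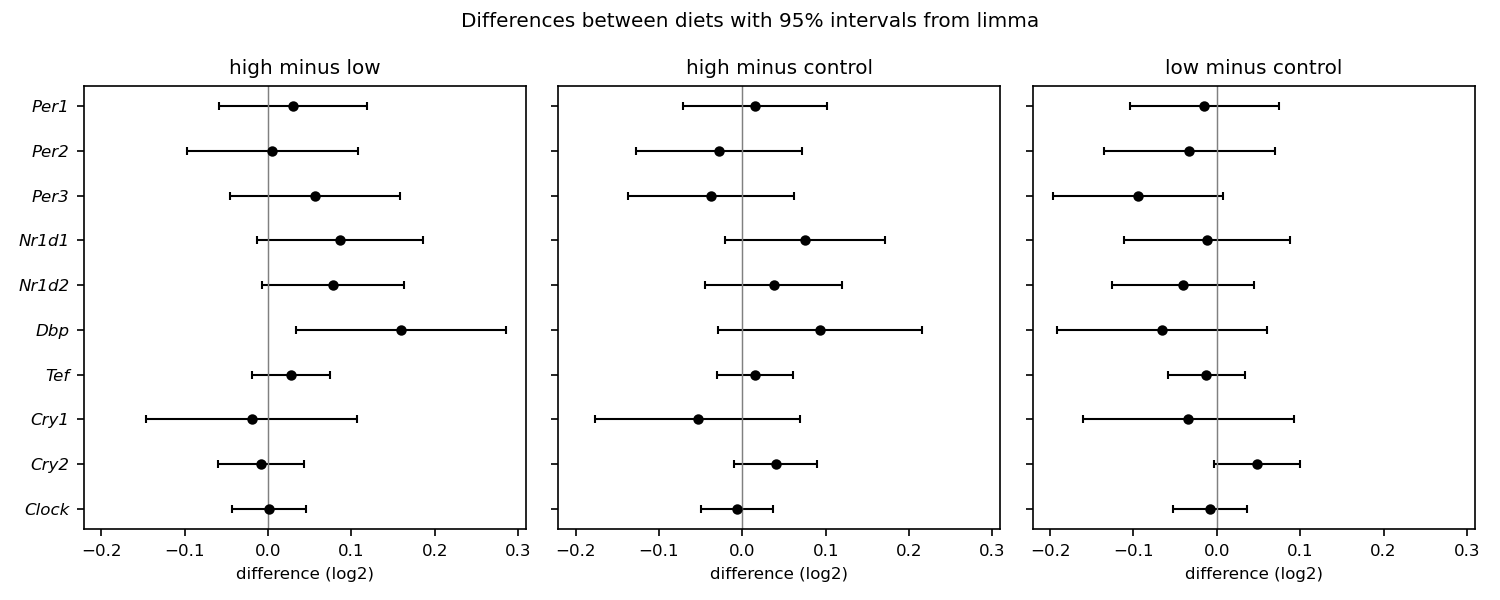
Difference between diets in log2 units (x axis) for the 10 clock genes, as points with 95% intervals from limma. The interval of Dbp for high minus low, 0.033 to 0.29, is the only one of the 30 that does not hold 0. All intervals take cage mates as independent, although cage mates resembled each other in Dbp.

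Among 22 further clock genes listed, 15 had a probe set of their own and 12 were tested. None of the 12 passed the adjusted threshold in any contrast, and at an unadjusted p under 0.05 Bmal1 alone did, in the F-test and in high minus control (1 of 12 in each). Bmal1 (Arntl), the partner of CLOCK, ranged from 8.60 through a median of 8.73 to 8.86 on low, from 8.57 through 8.77 to 9.02 on control and from 8.60 through 8.64 to 8.79 on high. The high-diet rats lay within the control range. High minus control was -0.11 (SE 0.043, limma adjusted p = 1.00), and high minus low was -0.088 (limma adjusted p = 0.692). Npas2, the CLOCK relative, was -0.089 for high minus control (limma adjusted p = 1.00). Over the 12 genes, 7 were higher and 5 lower in high minus low, with a median difference of 0.0071.

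Markers of tissue next to the hippocampus and of vessels had differences of 1 sign in the contrast in which Dbp had its largest difference. For high minus low, 5 of 5 tested markers of neighbouring cortex were positive with an unadjusted p under 0.05, and 9 of 9 endothelial and mural markers were negative, 4 of them under 0.05. High minus control had the same signs, with 5 of 5 cortex markers positive and 9 of 9 vessel markers negative, 4 of each under 0.05. Of the 8 tested markers of hippocampal neurons, 7 were negative in high minus low, 1 of them under 0.05, with a median difference of -0.047. Per rat, the mean value of the cortex markers was 9.76 to 9.96 on low, 9.73 to 10.05 on control and 9.75 to 10.20 on high, and that of the vessel markers 8.33 to 8.47, 8.35 to 8.46 and 8.28 to 8.39. That of the hippocampal neuron markers was 11.53 to 11.68, 11.33 to 11.65 and 11.25 to 11.62. No marker of these lists was called. Their part in the values of Dbp, Nr1d1 and Nr1d2 was not tested.

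Within diets the rats spread widely in some members and little in others. Removing each diet's mean left a residual SD of 0.14 log2 for Cry1 and for Dbp, larger than that of 93.9% and 93.8% of tested genes. Per2, Per3 and Nr1d1 had residual SDs of 0.11, 0.11 and 0.10, at the percentiles 83.7, 83.4 and 81.5, and Per1 and Nr1d2 had 0.093 and 0.088, at 71.4 and 66.5. Clock, Tef and Cry2 lay at the other end, with SDs of 0.037, 0.040 and 0.047 at the percentiles 2.47, 4.15 and 9.78. Between the lowest and the highest of the 26 rats Dbp thus spanned 1.57-fold and Clock 1.09-fold. The SD of Per3 was 0.13 on low, 0.055 on control and 0.12 on high, and that of Per1 0.11, 0.061 and 0.11, while Cry1 had 0.19, 0.13 and 0.050. Whether these SDs differ between diets was not tested.

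Covariation between rats was examined because the RNA of clock genes depends on the hour of sampling; the hour itself was not available, so its part in the values was not tested. For the 45 pairs of members, Pearson r and Spearman rho were computed over 26 rats after removal of the diet means, with 2-sided permutation tests (100000 draws) adjusted over the 45 pairs. At an adjusted p under 0.05, 6 of 45 pairs were called, all positive. Of all pairs of tested genes, 2.61% had an r at least as large as the weakest of these pairs. All 6 pairs join Per1, Per2, Per3, Nr1d1, Nr1d2 and Dbp, and 4 of the 6 include Dbp.

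Dbp ran with Per1, Per3, Nr1d1 and Nr1d2. Per3 and Dbp had r = 0.71 (permutation p = 5e-05, adjusted p = 0.00225), with rho = 0.64 (permutation p = 0.00061) and r = 0.57 once the 2 rats with the most extreme Per3 values were left out. Nr1d2 and Dbp had r = 0.67 (permutation p = 0.00016, adjusted p = 0.0036), with rho = 0.66 (permutation p = 0.00035) and r = 0.67 without the 2 most extreme rats. Both pairs were called whichever single rat was left out, with r between 0.64 and 0.77 for the first and between 0.62 and 0.71 for the second. Per1 and Dbp had r = 0.58 (permutation p = 0.00194, adjusted p = 0.0218), with rho = 0.52 (permutation p = 0.00687). Nr1d1 and Dbp had r = 0.53 (permutation p = 0.00567, adjusted p = 0.0425), with rho = 0.57 (permutation p = 0.00262) and r = 0.49 without 2 rats. The D-box activator thus varied together with some repressors of the core loop and with those of the side loop. Its pairs with the repressors Per2 (r = 0.41), Cry1 (r = 0.41) and Cry2 (r = 0.044) were not called.

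The other called pairs were among the repressors. Per1 and Per3 had r = 0.59 (permutation p = 0.00182, adjusted p = 0.0218), with rho = 0.47 (permutation p = 0.0168). Per2 and Nr1d2 had r = 0.54 (permutation p = 0.00444, adjusted p = 0.040), with rho = 0.57 (permutation p = 0.00293) and r = 0.41 without 2 rats. Some of these relations leaned on few rats: without the 2 rats with the most extreme Per1 values, r was 0.34 for Per1 with Per3 and 0.36 for Per1 with Dbp. By rho with its own adjustment neither pair was called (adjusted permutation p = 0.119 and 0.0618), nor was either called without rat 4 of the low diet or without rat 19 of the high diet. Per2 with Nr1d2 was called in 18 and Nr1d1 with Dbp in 13 of 26 repeats that each left out 1 rat. Neither was called with arrays centred on their medians. Per2 with Nr1d2 was also lost with diet means kept in, and Nr1d1 with Dbp with values over 2 SD from the diet mean removed. In all, 2 pairs were called without low-diet rat 4 or without high-diet rat 19, and 11 without low-diet rat 6.

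Cage mates may not be independent, so the pairs were repeated over the means of the 14 cages. There 3 pairs were called: Nr1d2 with Dbp (r = 0.78), Per1 with Dbp (r = 0.77) and Per1 with Per3 (r = 0.76), each with an adjusted permutation p of 0.0294. The share of all gene pairs with so large an r over cage means is not given. Control rat 9 and high-diet rat 24 entered as single rats, and the permutation treated them like the other cage means. They lay 0.21 and 0.16 above their diet means in Dbp and 0.16 and 0.17 in Nr1d2. Per3 with Dbp had r = 0.71 over cage means (adjusted permutation p = 0.0501), Per2 with Nr1d2 0.62 (0.135) and Nr1d1 with Dbp 0.55 (0.204). Within single diets r for Per3 with Dbp was 0.77 on low, 0.17 on control and 0.81 on high, and for Nr1d2 with Dbp 0.68, 0.71 and 0.77. Exact permutation within a diet called 0 pairs on low, 1 on control and 0 on high, the one being Per2 with Nr1d2 (r = 0.86, n = 9, exact permutation p = 0.00091, adjusted p = 0.0410). Whether r differs between diets was not tested.

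The remaining members did not join. None of the 30 pairs that hold Clock, Cry1, Cry2 or Tef was called, and their r ran from -0.38 (Clock with Tef) to 0.41 (Cry1 with Dbp), with a median of 0.12. The 15 pairs of Per1, Per2, Per3, Nr1d1, Nr1d2 and Dbp were all positive, from 0.078 (Per2 with Nr1d1) to 0.71, with a median of 0.47. The median over all pairs of tested genes was 0.040. This grouping of 6 genes was made after the values were seen, so the medians are a description. Cry1 with Dbp, r = 0.41, was the largest r of a member outside the 6, and without low-diet rat 6, the rat with the highest Cry1 value (7.61) and the second lowest Dbp value (11.16), r was 0.61 (adjusted permutation p = 0.0153). Of the promoter windows with E-box letters, those of Per2 and Nr1d1 belong to genes of this group and those of Tef and Cry2 do not, while the windows of Dbp, Per1 and Per3 hold none. The windows of Per1, Per3 and Tef lie inside their genes and do not cover the bases before the gene starts.

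**Figure D3:**
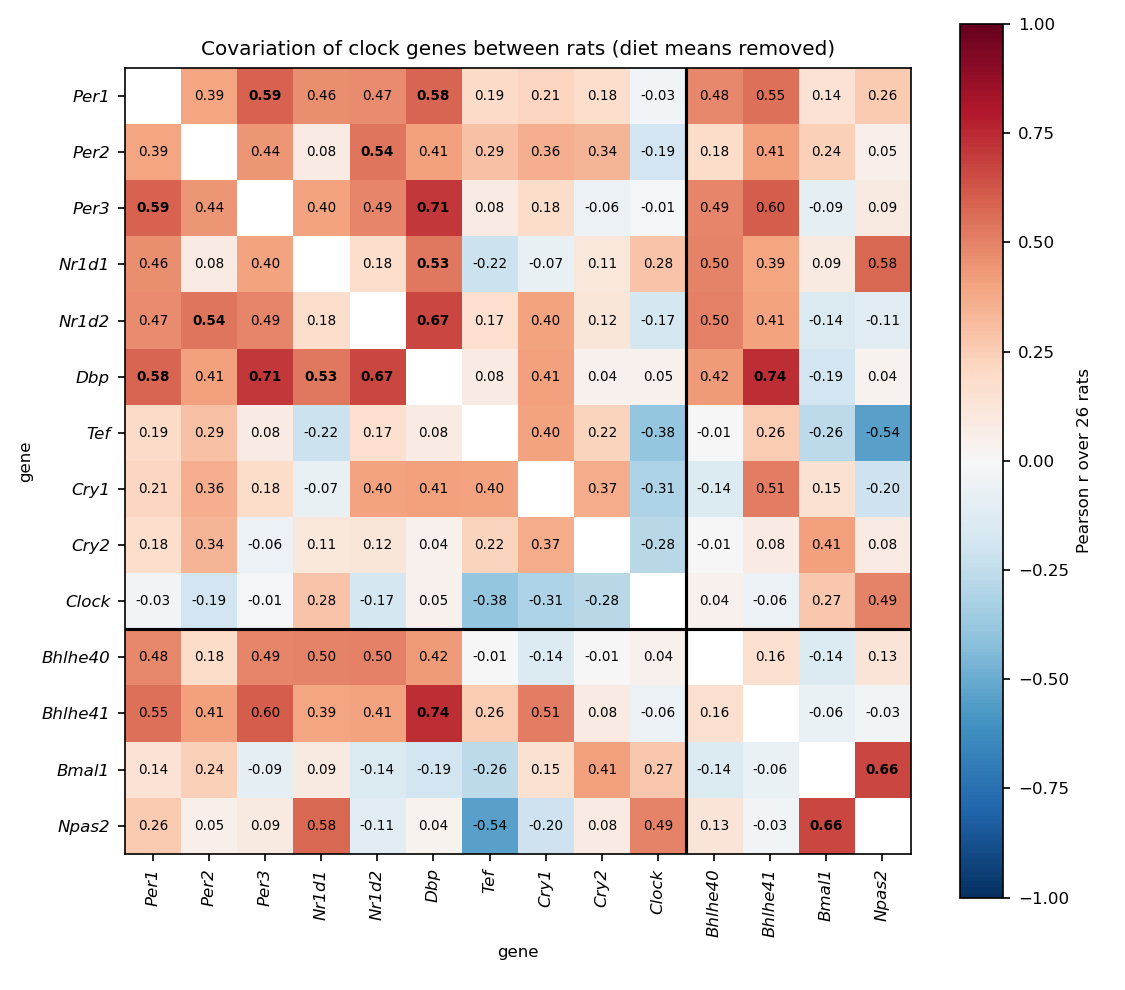
Pearson r over 26 rats after removal of diet means between the 10 clock genes and 4 further clock genes (both axes), with colour from -1 (blue) to 1 (red). Bold marks pairs called at an adjusted permutation p under 0.05 within their family of 45 or 186 pairs, and the block of 6 genes around Dbp is positive throughout.

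The same rats carried the variation in several genes. In low-diet rat 4, Per1 was 9.74, Per2 9.17, Per3 9.50 and Dbp 11.62, each the highest of the 8 rats on that diet. High-diet rat 19 was the highest of its diet for Per1 (9.77), Per3 (9.53) and Dbp (11.75). Control rat 9 was the highest control for Per2 (9.10), Nr1d2 (10.71), Dbp (11.64), Tef (10.30) and Cry1 (7.61), and high-diet rat 24 had the highest Nr1d2 of any rat, 10.75. At the low end, low-diet rat 6 had the lowest Per1 (9.40), Per3 (9.09) and Nr1d1 (10.76) of all 26 rats, yet the highest Cry1. Every diet has a highest rat, so these rats do not show how high values are spread over the diets.

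A score, the mean standardised residual of Per1, Per2, Per3, Nr1d1, Nr1d2, Dbp and Tef, put low-diet rat 4 (1.67), high-diet rat 19 (1.36), control rat 9 (1.18) and high-diet rat 24 (0.86) at the top. The next rat had 0.40. The score has the diet means removed, so it does not compare diets. Control rat 9 and high-diet rat 24 are the 2 rats with no array of a cage mate here. At the bottom lay high-diet rats 23 (-0.88), 20 (-0.74), 25 (-0.73) and 21 (-0.70), low-diet rat 6 (-0.68) and control rat 15 (-0.66).

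**Figure D4:**
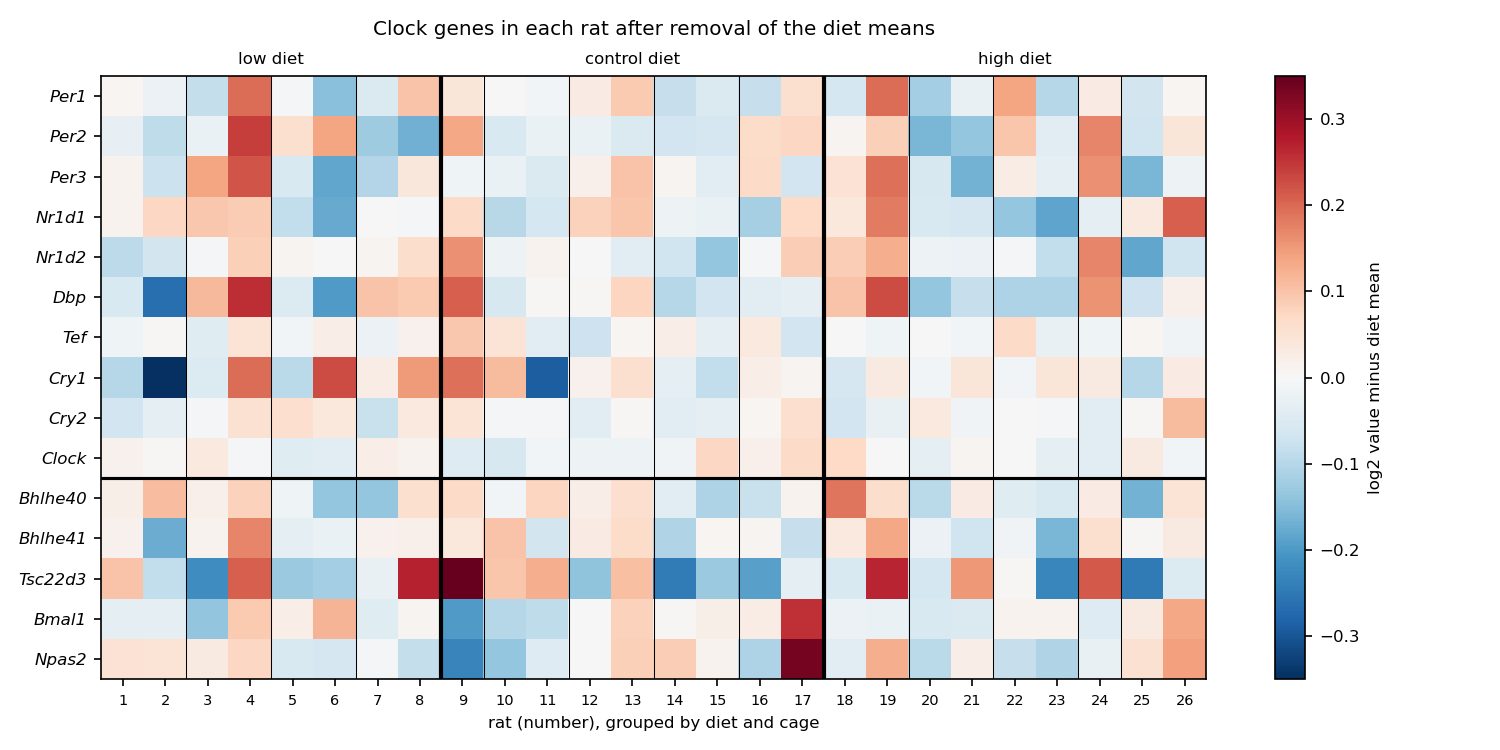
Log2 value minus diet mean (colour, blue low to red high) of clock genes and Tsc22d3 (rows) in each of 26 rats (columns, ordered by diet, with thin lines between cages). Dbp and Nr1d2 lie above the diet mean in rats 4, 9, 19 and 24, and Clock and Tef stay pale, with residual SDs of 0.037 and 0.040.

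Rats of a cage resembled each other in Dbp, both Nr1d genes, Per2 and Per3. The intraclass correlation, which is 1 where cage mates have equal values and below 0 where they differ more than rats of different cages on one diet, was computed over the 12 cages with both rats. It was 0.71 for Dbp, 0.68 for Nr1d2, 0.67 for Nr1d1, 0.56 for Per2 and 0.55 for Per3, against a median of 0.14 over all tested genes. At least 0.5 was reached by 5 of 10 members, against 13.3% of all tested genes; this level was chosen after the values were seen. The members' median was 0.45. It was also 0.45 over the 9 tested immediate early genes, which respond to neuronal activity and of which 3 reached 0.5. Dbp lay at the percentile 97.6 of all tested genes, Nr1d2 at 96.4 and Nr1d1 at 96.0.

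In measured units, cage mates differed by 0.080 log2 in Dbp on average, and pairs of rats from other cages of the same diet by 0.15. For Nr1d1 the figures were 0.065 and 0.14 and for Nr1d2 0.053 and 0.091. In Dbp and in Nr1d1, the cage mates lay on the same side of their diet mean in 10 of 12 cages. The count was 9 for Per2, 8 for Nr1d2 and 7 for Per3. Bmal1 had 10 and Npas2 had 9, with intraclass correlations of 0.27 and 0.022. Leaving out any 1 cage kept Dbp between 0.66 and 0.76 and Nr1d1 between 0.55 and 0.77, whereas Per3 ran from 0.31 (without low-diet cage 5) to 0.61 and Per2 from 0.41 (without low-diet cage 9) to 0.75.

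The other members had lower values. Per1 had an intraclass correlation of -0.31, Cry1 -0.0016, Clock 0.29 and Cry2 0.34. Clock had 0.077 with arrays centred on their medians and 0.15 without low-diet cage 8, and Cry2 had 0.13 with quantile normalization. Per1 varied with Dbp and Per3 over rats while its values differed within cages: low-diet rats 3 and 4 of cage 5 had 9.46 and 9.74, and high-diet rats 18 and 19 of cage 1 had 9.51 and 9.77. Cry1 depended on 1 cage, with -0.69 without low-diet cage 4. Tef was at the opposite extreme from Dbp, with -0.73, the percentile 0.159, and cage mates on the same side of the diet mean in 1 of 12 cages. Its differences were small, 0.053 log2 between cage mates and 0.038 between other rats of a diet. Among the 12 other clock genes, 0 reached 0.5, with a median of 0.18, though the kinase gene Csnk1d came near with 0.48, at the percentile 85.0. No p is given for these values.

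**Figure D5:**
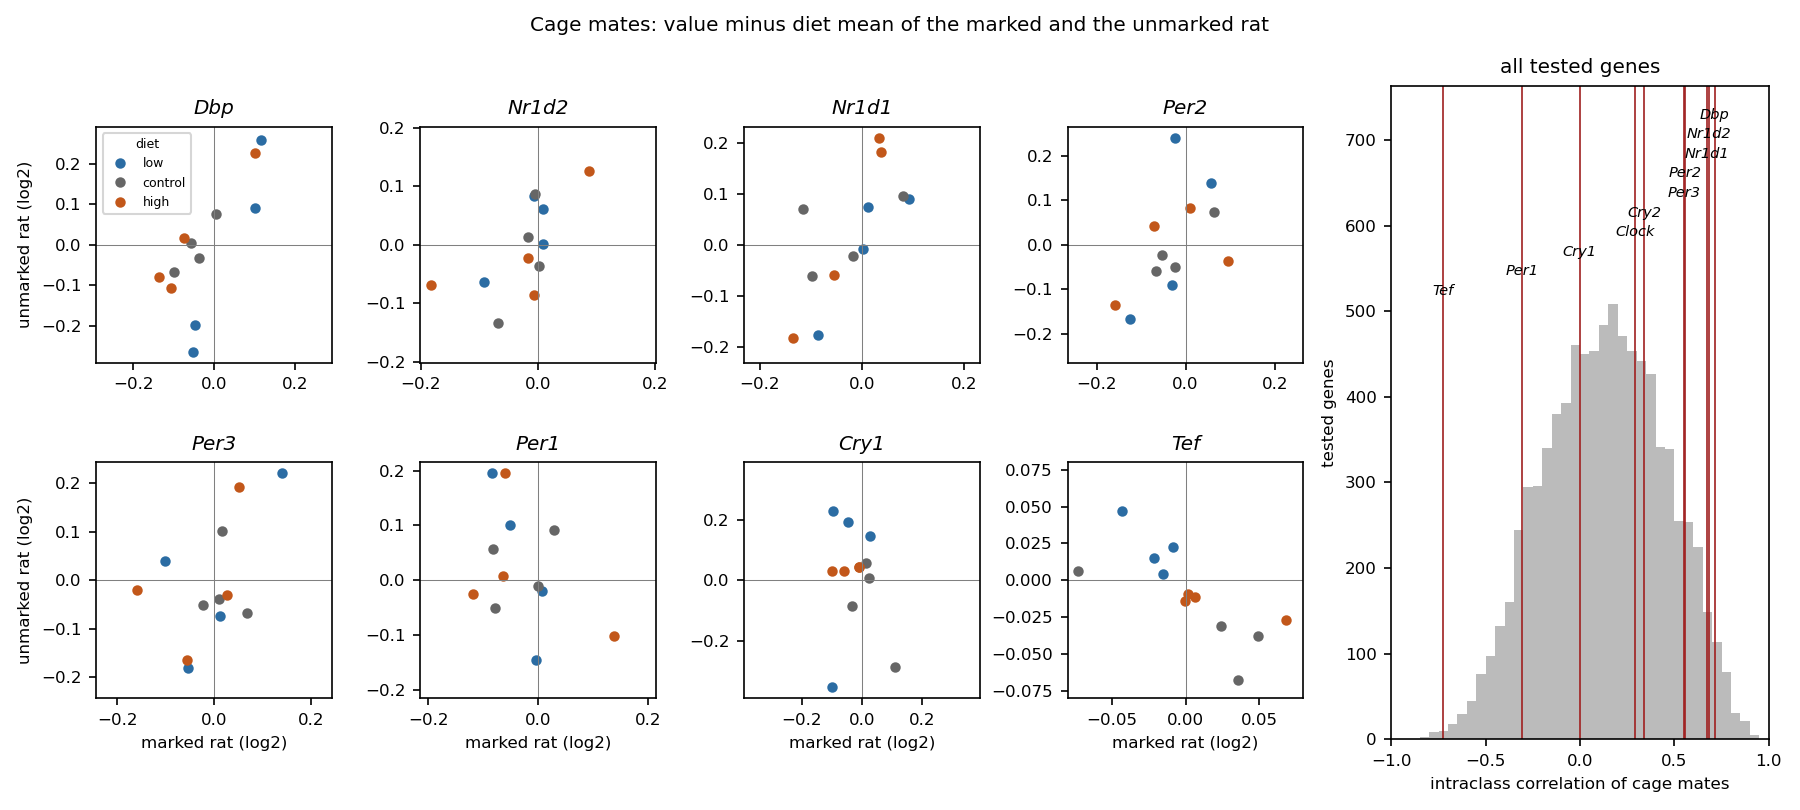
Left, log2 value minus diet mean of the unmarked (y axis) against the marked rat (x axis) of each of 12 cages, coloured by diet, for 8 clock genes. Right, histogram of the intraclass correlation (x axis) of 8485 tested genes (y axis, number of genes), with red lines at the 10 clock genes, from -0.73 for Tef to 0.71 for Dbp.

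Beyond the members, the clock repressor Bhlhe41 (DEC2) followed the group most closely. Over 186 pairs that involve the 12 other clock genes, 3 were called by r, and 0.803% of all pairs of tested genes had an r at least as large as the weakest of them. Dbp with Bhlhe41 led (r = 0.74, rho = 0.75, adjusted permutation p = 0.00372, r = 0.62 without 2 rats, 0.89 over cage means). Per3 with Bhlhe41 had r = 0.60 (adjusted permutation p = 0.0535). Cry2 with Csnk1d, a kinase of PER proteins, had r = 0.63 (adjusted permutation p = 0.0360, rho = 0.51, r = 0.48 without 2 rats), with 0.83, 0.035 and 0.75 within the low, control and high diets. Bmal1 with Npas2 had r = 0.66 (adjusted permutation p = 0.0360), but rho was 0.38 and r was 0.29 without the 2 farthest rats, 9 and 17 of the control diet being the lowest and highest rats in both genes. Its r within diets was -0.29, 0.93 and 0.50. By rho with its own adjustment 3 of the 186 pairs were called: Dbp with Bhlhe41 again, Nr1d1 with Npas2 (rho = 0.71, r = 0.58, adjusted permutation p of 0.00558 by rho and 0.0595 by r), and Per3 with Bhlhe41 (adjusted permutation p = 0.0186). Neither Cry2 with Csnk1d (adjusted permutation p = 0.197) nor Bmal1 with Npas2 (0.390) was called by rho. Bmal1 had an r of -0.19 to 0.24 with the 6 genes around Dbp, and none of these pairs was called.

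Glucocorticoid-induced and immediate early genes were set beside the members because Per1 is also induced by glucocorticoids. Over 170 pairs, 2 were called by r: Tsc22d3 (GILZ), a glucocorticoid-induced gene, with Per1 (r = 0.68, rho = 0.71) and with Nr1d2 (r = 0.67, rho = 0.57), both at an adjusted permutation p of 0.0145, and r was 0.61 and 0.60 without 2 rats. Tsc22d3 with Dbp had r = 0.61 (adjusted permutation p = 0.0612). Over cage means r was 0.51 for Per1 and 0.79 for Nr1d2. Of all pairs of tested genes, 0.423% had an r at least as large as the weaker of the called pairs. Among 90 pairs with immediate early genes 0 were called by r, where the smallest adjusted permutation p was 0.074, for Cry2 with Junb. By rho with its own adjustment 4 of the 170 pairs were called. These were Tsc22d3 with Per1 (adjusted permutation p = 0.00935), Per1 with the glucocorticoid-induced kinase gene Sgk1 (rho = 0.63, adjusted permutation p = 0.0298), and Cry2 with the immediate early genes Junb (rho = 0.72, adjusted permutation p = 0.0068) and Arc (rho = 0.68, adjusted permutation p = 0.0125). Tsc22d3 with Nr1d2 was not called by rho (adjusted permutation p = 0.0989). Tsc22d3 cage mates did not resemble each other (intraclass correlation 0.018), and over the 8 glucocorticoid-induced genes the median intraclass correlation was -0.069. Over the 9 immediate early genes the median was 0.45.

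By likeness to the score over 26 rats, the nearest of all non-member genes were Bhlhe41 (r = 0.72), Tspan4 (0.69), Lpcat1 (0.68), Tsc22d3 (0.67) and Aacs (0.67), and the most opposed were Rtn4 (-0.63), Cd302 (-0.63), Fbxo8 (-0.62), Ccdc71 (-0.61) and Ap5s1 (-0.59). Within single diets Bhlhe41 had r = 0.82 on low, 0.33 on control and 0.84 on high. These are extremes of 8475 non-member genes and are descriptions without a test. Ranked from Dbp, Per3 was the third and Nr1d2 the fourth nearest of all tested genes, and Per1 the tenth, and ranked from Per3, Dbp was the nearest. The nearest non-member was Pcbp3 for Dbp (r = 0.79), Mob2 for Per3 (0.68), Hspa12a for Nr1d2 (0.72), Cables1 for Per1 (0.75), Slc7a8 for Nr1d1 (0.82), Inpp5b for Per2 (0.77), St3gal5 for Tef (0.68), Med4 for Cry1 (0.82), Slc25a42 for Cry2 (0.84) and Minpp1 for Clock (0.71). Nr1d1, Per2 and the members outside the group had many genes nearer to them than any other member: Dbp ranked 290 from Nr1d1, and Nr1d2 ranked 81 from Per2.

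Across rats, the score ran with r = 0.42 beside the mean standardised residual of the glucocorticoid-induced genes. The r was 0.38 beside that of the other clock genes and 0.30 beside the array median minus its diet mean. Beside the cell type lists r was 0.16 for neighbouring cortex, 0.10 for choroid plexus, 0.075 for endothelial and mural cells, 0.0063 for microglia, -0.011 for astrocytes, -0.052 for oligodendrocytes and -0.14 for hippocampal neurons. Beside immediate early genes it was 0.061. These are descriptions over the same 26 arrays, and the part of any of these in the covariation was not tested, except that centring each array on its median left 4 of the pairs called, Per3, Nr1d2 and Per1 with Dbp and Per1 with Per3.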

How the data were processed

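The authors deposited log2 probe set values for 26 arrays (29214 probe sets, 0 missing). Partek 6.6 and GCRMA are named, without roles, per the submitters' processing notes, and the log2 scale is per the labels' design text. RNA was extracted with TRIzol, per the labels' protocols.

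No further normalization was applied. Of the probe sets, 15310 had 1 gene symbol, 323 several and 13581 none. The probe set of highest mean stood for each of 14506 genes, and 8485 with a mean of at least 6.94, the median of all probe sets, were tested. Limma 3.58.1 in R 4.3.3 fitted the 3 diets over all arrays (moderated F-test and 3 contrasts, 2-sided, Benjamini-Hochberg over 8485 genes). Pair correlations used values minus diet means, 100000 permutations, or all orders under 10 rats. P-values measure the spread between rats and take cage mates as independent, except over cage means. Cage numbers were read from array descriptions. The procedures were tested on simulated data. Members, lists and tests were chosen with earlier results of these data known.

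Named genes were the members, tested genes of the clock list, the 5 non-members most and least like a score of 7 members, and the nearest non-member of each member. Exceptions, named after their values were seen, were individual genes of the glucocorticoid, immediate early and marker lists. Alternatives were no low-value filter, every probe set, quantile normalization, array centring, cage as a random block, array weights (0.474 to 1.64), removal of values over 2 SD from a diet mean, no moderation, 2 diets only, tail mark, linear dose, and leaving out each rat. Pairs were also repeated with rho, with diet means kept, over cage means and within diets. The families of 186 and 170 pairs, the group of 6 genes, the level of 0.5 and leaving out each cage were chosen after seeing the data. The consensus correlation of cage mates was 0.136, a single value for all tested genes, whereas Dbp had an intraclass correlation of 0.71. Serum measurements and behaviour were not used here.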

Additional observations from a re-analysis of the deposited data

Results flagged for a closer look

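Tef on the high diet had 1 rat apart from its group. Rat 22 had a log2 value of 10.28, and the next highest of the 9 rats had 10.22. The distance between them was 0.646 of the whole range of the group, above the 5% limit of 0.493 for 9 samples. It was 1 of 30 combinations of gene and diet examined, and chance flags about 1 in 20 such groups. Without rat 22, high minus low for Tef was 0.019 log2, against 0.027 with it.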

How the results depend on the processing

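No paired analysis was possible because subject numbers do not repeat between diets. Removing outlier values (over 2 SD from the diet mean) gave 17 called genes over the 3 diets, 30 in high minus low and 15 in high minus control. Quantile normalization, array centring and the tail mark each gave 1 in high minus low. Leaving out 1 rat gave 0 to 3 genes over the diets, 0 to 3 in high minus low (3 without high-diet rat 25, 2 without low-diet rat 2 or control rat 17) and 0 to 1 in high minus control (1 without control rat 17 or high-diet rat 25). No member was among the genes called in these alternatives; their smallest adjusted p in any alternative was 0.327 (limma). Dbp high minus low stayed between 0.12 and 0.20.

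Of 30 member differences 20 kept their sign in every alternative. Clock, high minus low, turned to -0.0011 (quantile normalization) and -0.0027 (array weights), and Clock also turned to 0.0063 in high minus control (centring) and to 0.00097 in low minus control (weights). With weights Per2 was -0.0064 in high minus low and Nr1d1 0.018 in low minus control. Without 1 rat, high minus low ran from -0.0070 to 0.0065 for Clock, -0.070 to 0.013 for Cry1, -0.022 to 0.00035 for Cry2 and -0.019 to 0.039 for Per2. High minus control ran from -0.015 to 0.0028 for Clock and -0.0093 to 0.030 for Per1. Low minus control ran from -0.015 to 0.0012 for Clock, -0.070 to 0.016 for Cry1, -0.026 to 0.014 for Nr1d1 and -0.043 to 0.0059 for Per1. These members lay near 0 in the full data; the cause was not tested.

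Pairs called were 3 over cage means, where fewer units enter, and 0, 1 and 0 within the low, control and high diets. Leaving out 1 rat gave 2 to 11. The median r of the 45 pairs was 0.40, 0.29 and 0.19 within the low, control and high diets, against 0.21 over all rats.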
